A study of Mus musculus with 32 samples.

Results

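The endothelial and vessel growth genes described here are 10 genes, chosen by symbol from the 53801 gene IDs in the tables: the growth factor Vegfa with its receptors Kdr and Flt1, the ligand Angpt1 with the receptors Tek and Tie1, the junction and surface genes Pecam1, Cdh5 and Emcn, and Vwf. All 10 passed the filter on low values and were among the 12817 genes tested. RNA came from cryosections of frozen quadriceps, a fast thigh muscle, of 32 mice. WT mice and mice homozygous for the allele Col6a2 tm1(KOMP)Vlcg (Col6a2-/-) came from heterozygous breeders of a C57BL/6N knockout strain crossed back to C57BL/6J, and were 5 or 25 weeks old. The 8 groups of genotype, age and sex held 4 mice each. The allele is constitutive, so the labels tie no difference to 1 cell type. The libraries are bulk RNA, in which fewer cells of a type and less RNA per cell cannot be told apart.

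Blood vessels are lined by endothelial cells, and in muscle most of them form capillaries that run along the fibres. VEGF-A, made largely by muscle fibres in this tissue, signals through VEGFR2, the product of Kdr, while VEGFR1, the product of Flt1, binds VEGF-A tightly and limits what reaches VEGFR2. Angiopoietin-1, made by mural and other stromal cells, activates the receptor Tie2, the product of Tek, and Tie1 is a partner of Tie2 without a well defined ligand of its own. PECAM-1 and VE-cadherin, the product of Cdh5, hold neighbouring endothelial cells together, endomucin (Emcn) is a surface glycoprotein of capillaries and veins, and von Willebrand factor (Vwf) is stored in endothelial cells and platelets for clotting.

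The promoters of 4 receptor genes are shown because the results below turn on these receptors: Kdr was lowest and Flt1 comparatively high in 2 libraries, and Tek and Tie1 were each called in some comparisons. No test set the receptors of a pair against each other. Each window runs from 250 bases before to 50 bases after a RefSeq start on GRCm38.p6, 5′ to 3′ on the gene's strand, and 6 of the 10 genes had an entry. Capitals mark GGAAG, the core bound by ETS factors, a family with many endothelial members. They also mark TGACGTCA, the cAMP response element, and TATAAA, the usual form of a TATA box. Each motif was searched on both strands, so that its reverse complement is in capitals too. Kdr lies at chr5:75932827-75978458 on the minus strand and its window at chr5:75978406-75978705. Flt1 lies at chr5:147561604-147726011 on the minus strand and its window at chr5:147725962-147726261. Tie1 lies at chr4:118471191-118490061 on the minus strand and its window at chr4:118489800-118490099. Tek lies at chr4:94739289-94874976 on the plus strand and its window at chr4:94739039-94739338.
Kdr: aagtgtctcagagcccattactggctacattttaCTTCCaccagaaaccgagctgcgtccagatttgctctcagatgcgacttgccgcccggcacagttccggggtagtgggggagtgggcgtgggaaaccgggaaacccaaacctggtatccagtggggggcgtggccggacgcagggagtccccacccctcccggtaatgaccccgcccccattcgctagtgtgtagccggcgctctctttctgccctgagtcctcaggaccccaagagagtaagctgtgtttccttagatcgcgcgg
Flt1: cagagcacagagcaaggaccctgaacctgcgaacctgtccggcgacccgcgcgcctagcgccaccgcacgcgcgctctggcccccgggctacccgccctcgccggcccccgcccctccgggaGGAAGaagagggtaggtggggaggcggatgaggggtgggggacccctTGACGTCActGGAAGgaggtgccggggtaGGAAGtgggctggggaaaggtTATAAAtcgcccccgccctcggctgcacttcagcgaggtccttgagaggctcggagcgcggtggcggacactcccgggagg
Tie1: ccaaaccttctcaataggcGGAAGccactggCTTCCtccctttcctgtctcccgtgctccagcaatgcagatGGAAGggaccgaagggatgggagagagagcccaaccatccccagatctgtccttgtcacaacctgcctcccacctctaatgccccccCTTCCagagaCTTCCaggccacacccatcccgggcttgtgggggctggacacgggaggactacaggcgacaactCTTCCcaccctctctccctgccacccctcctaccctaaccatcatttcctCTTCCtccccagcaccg
Tek: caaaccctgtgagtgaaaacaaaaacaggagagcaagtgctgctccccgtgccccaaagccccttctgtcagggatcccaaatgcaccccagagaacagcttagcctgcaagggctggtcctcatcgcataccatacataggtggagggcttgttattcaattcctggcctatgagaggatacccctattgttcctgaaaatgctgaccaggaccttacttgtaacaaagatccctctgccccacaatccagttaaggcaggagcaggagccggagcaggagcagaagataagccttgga
The Flt1 window held 3 matches of GGAAG, 1 of TGACGTCA and 1 of TATAAA, whereas the Kdr window held 1 match of the ETS core and neither of the other marked motifs. The Tie1 window held 7 matches of the ETS core and the Tek window none. Of 32851 promoter windows of the same length, 71.4% held the ETS core, 1.79% TGACGTCA and 13.6% TATAAA, with no overlap between these motifs in the windows shown. A match is a description of the letters, not a site shown to be bound.

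Levels are in TPM, each gene's share of all transcripts after scaling for gene length, so that they can be compared between genes. Over all 32 libraries Vegfa was the most abundant of the 10 genes, at 28.0 ± 5.84 TPM (mean ± SD, n = 32). Pecam1 followed with 19.7 ± 4.51 and Cdh5 with 19.0 ± 5.97 TPM, which differ by less than their spread. Kdr had 10.5 ± 3.15 TPM. Tek at 7.72 ± 1.48, Flt1 at 7.30 ± 1.24 and Tie1 at 6.70 ± 1.41 TPM formed a run of neighbours that differ by less than their spread. The place of Flt1 in this order depends on the measure: by coverage, the mean read depth put on the TPM scale, its median was 1.88 against 6.58 for Tek and 5.34 for Tie1, and its ratio of coverage to TPM of 0.26 is one that 16.9% of all tested genes are at or below. By coverage Cdh5 (11.7) stood above Pecam1 (9.33), Tek close to Kdr (6.67), and Angpt1 (0.468) below Vwf (1.5). On TPM, Emcn at 5.48 ± 1.01, Angpt1 at 5.36 ± 1.14 and Vwf at 4.05 ± 0.878 TPM were the lowest. For the remaining positions on GRCm38, Vegfa is at chr17:46016993-46032369 (minus), Angpt1 at chr15:42424723-42676977 (minus), Pecam1 at chr11:106654217-106750628 (minus), Cdh5 at chr8:104101625-104144511 (plus), Emcn at chr3:137341067-137432185 (plus) and Vwf at chr6:125546774-125686679 (plus). Cdh5 overlaps Gm29682, whose highest value was 0 TPM, and Angpt1 overlaps Gm17473, which reached 0.725 TPM; the use of strand is not given in the sources used here, so reads in such overlaps cannot be assigned with certainty.

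**Figure D1:**
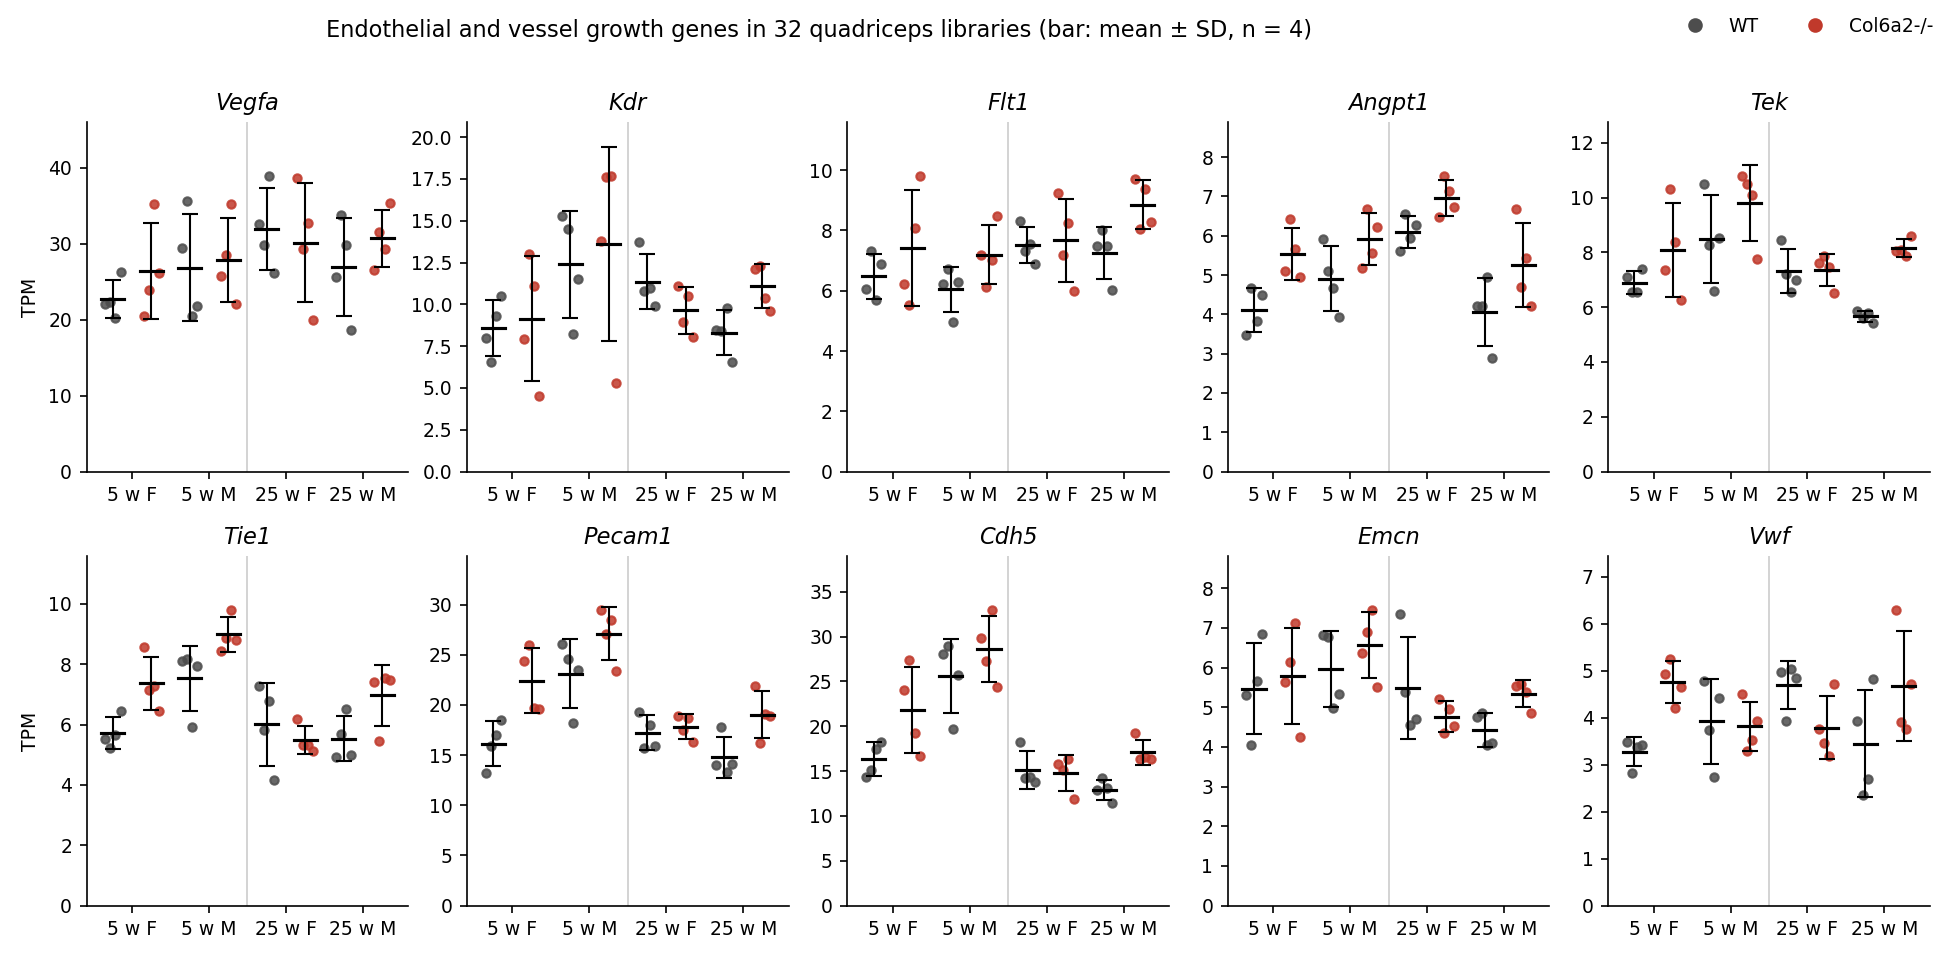
TPM of each gene in every library, grouped by age in weeks (w) and sex (F, M), with WT in grey and Col6a2-/- in red; points are libraries and the black bars are the mean ± SD of 4. Cdh5 was at 24.4 TPM or higher in all 4 Col6a2-/- males of 5 weeks and at 14.2 TPM or lower in all 4 WT males of 25 weeks.

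The genotype labels were checked with Col6a2, which had 19.9 to 51.2 TPM in WT and 0 to 0.171 TPM in Col6a2-/- mice at 5 weeks, and 6.60 to 13.6 against 0.00785 to 0.0344 TPM at 25 weeks. An exact two-sided permutation test gave p = 0.000155 at each age, the smallest the design allows. Relative depth ran from 0.758 to 1.53 times the median library, mitochondrial genes took 31.9 to 46.9% of TPM and Rn7s genes 20.8 to 30.5%. All 30 genes of a separate list of endothelial identity were detected, with a summed level of 207 to 389 TPM over the libraries, so endothelial RNA was present; which cells gave the RNA of the 10 genes cannot be read from bulk tissue. Replicate 4 of the 5-week Col6a2-/- females and replicate 4 of the 5-week Col6a2-/- males stood apart in the VEGF receptors, and results that rest on them are given with and without both.

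At 5 weeks, Pecam1, Cdh5, Tie1 and Angpt1 were higher in Col6a2-/- than in WT muscle, and the other 6 genes did not pass the test. A gene is called here at a Benjamini-Hochberg adjusted p under 0.05 in limma, over all tested genes, and differences are on the log2(TPM + 1) scale. The 4 of 10 called compare with 25.4% of all tested genes called and 23.2% of all tested genes called higher, so the count is read against a broad shift. The median difference of the 10 genes was 0.20 and that of all tested genes 0.15, with all 10 above 0. Without the 2 libraries named above 6 of the 10 were called, against 43.8% of all tested genes called in that fit. The calls gained are Kdr, whose low values singled these libraries out, and Tek, which varies with Kdr (r = 0.81). No test is read from this count.

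The broad shift depends on the scaling. The median difference of all tested genes at 5 weeks was 0.15 on TPM and 0.02 after median-of-ratios scaling, under which limma called none of the 10 genes, with 1 at an unadjusted p under 0.05 (Pecam1, 0.19, adjusted p = 0.0664), against 24.1% of all tested genes. After quantile normalisation the all-gene median was −0.02 and Pecam1 alone was called, at 0.23 with limma adjusted p = 0.02, again against 24.1%. On TPM 2979 genes were called higher and 274 lower, under median-of-ratios scaling 1864 and 1221, and after quantile normalisation 1413 and 1672. Without mitochondrial and Rn7s genes the calls of Cdh5 (adjusted p = 0.0664) and Angpt1 (adjusted p = 0.0602) were lost. Kdr, Emcn and, under median-of-ratios scaling, Vegfa changed sign. Relative to the all-gene median on TPM, Pecam1 was 0.20, Angpt1 0.15, Tie1 0.13 and Cdh5 0.13 higher in Col6a2-/- mice.

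Among the ligands, Angpt1 had 3.47, 4.58 and 5.91 TPM as the lowest, median and highest of 8 WT mice at 5 weeks, and 4.96, 5.60 and 6.69 TPM in Col6a2-/- mice. The groups overlap, but every Col6a2-/- library was above the WT mean. The difference was 0.29 (SE 0.0897, limma adjusted p = 0.0175). Angpt1 rests on few reads: its mean read depth was 1.90 to 5.81, and the ratio of its coverage to its TPM was 0.087, against a median of 0.59 over all tested genes, with 4.3% of them at or below it. Measured by coverage in place of TPM the difference was 0.11 with adjusted p = 0.014. The pericyte and smooth muscle markers, from cells that can make angiopoietin-1, summed to 199 to 297 TPM in WT and 227 to 276 TPM in Col6a2-/- mice, with 3 of 12 called higher (Higd1b, Pdgfrb and Acta2), near the 23.2% of all tested genes, and a list median of 0.073 against 0.15; their part in the Angpt1 difference was not tested.

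Vegfa did not differ beyond its spread at 5 weeks. Its lowest, median and highest values were 20.3, 22.2 and 35.7 TPM in WT and 20.5, 26.0 and 35.2 TPM in Col6a2-/- mice, an almost complete overlap. The difference was 0.13, with a 95% interval from −0.15 to 0.40 and limma adjusted p = 0.514. None of the 9 tested regulators of Vegfa on a list of 10, such as the hypoxia-inducible factors and their hydroxylases, was called by limma at 5 weeks, with 4 at an unadjusted p under 0.05, beside 25.4% of all tested genes called.

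Kdr, the main signalling receptor for VEGF-A, spread more widely in 5-week Col6a2-/- mice than in any other age and genotype. It had 6.58, 9.88 and 15.3 TPM as the lowest, median and highest in WT and 4.49, 12.0 and 17.7 TPM in Col6a2-/- mice. The difference was 0.02 (95% interval −0.34 to 0.39, limma adjusted p = 0.938). Replicate 4 of the females had 4.49 TPM and replicate 4 of the males 5.32 TPM, and the other 30 libraries lay between 6.54 and 17.7 TPM. Without these 2 libraries the difference was 0.34, and that of Tek 0.29 against 0.19 with them. The libraries were singled out by their low Kdr and Tek varies with Kdr, so these values are descriptions and no test is read from them.

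On TPM, Flt1 was comparatively high in these 2 libraries. It had 9.82 TPM in replicate 4 of the females and 8.48 TPM in replicate 4 of the males, against 5.54 to 8.08 TPM in the other 6 Col6a2-/- mice of 5 weeks and 4.97 to 9.69 TPM over all other 30 libraries, so that the male value lies inside the range of the whole set. The ratio of Kdr to Flt1 was 0.457 and 0.627 in these libraries and 0.899 to 2.88, with a median of 1.4, in the other 30. By coverage the ratio had another level, at 1.14 and 1.52 in these libraries against 2.27 to 6.74 with a median of 3.42. Flt1 itself was by coverage at 2.52 and 2.24 on the TPM scale, inside the range of 1.3 to 2.57 of the other 30. The Flt1 difference between genotypes was 0.18 (SE 0.0954, limma adjusted p = 0.16), and 0.08 without these libraries.

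**Figure D2:**
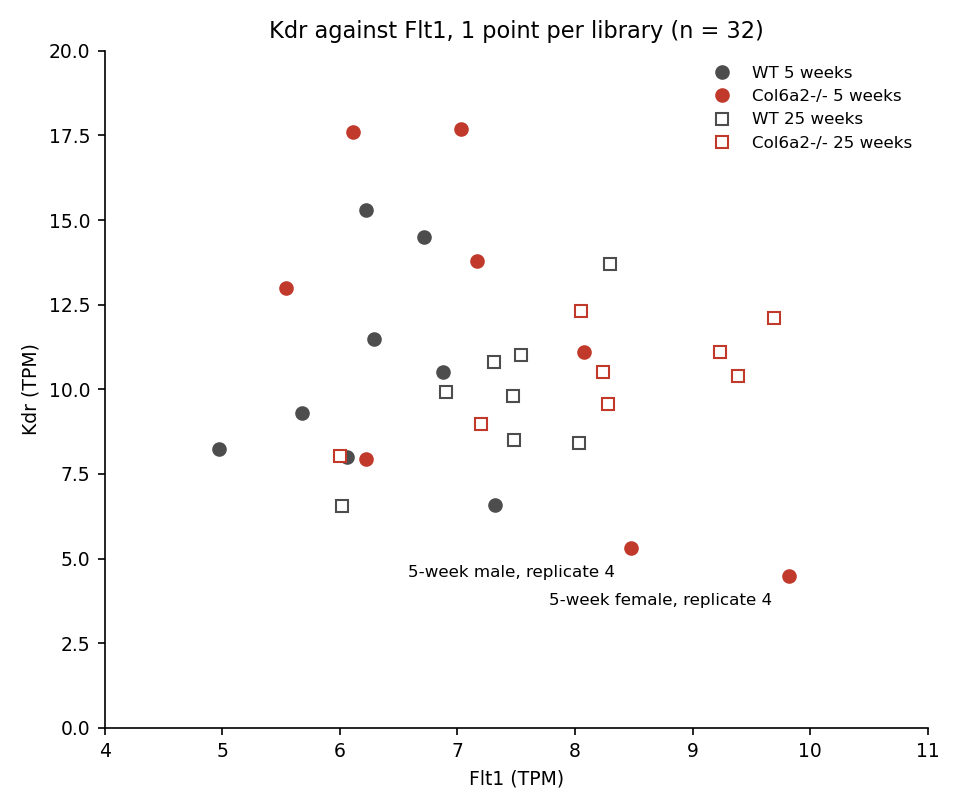
Kdr against Flt1, both in TPM, with 1 point for each of 32 libraries (circles: 5 weeks; open squares: 25 weeks; grey: WT; red: Col6a2-/-). The labelled Col6a2-/- libraries at 4.49 and 5.32 TPM of Kdr lie below the other 30, which reach down to 6.54 TPM.

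The same libraries stood at the top of several genes of fuel use and stress, which were picked after their values were seen. Ucp3, a mitochondrial carrier gene raised by fatty acids, had 47.5 and 37.1 TPM there and at most 29.9 TPM in the other 30 libraries. Mt2, a metallothionein gene induced by metals and glucocorticoids, had 33.1 and 35.9 TPM and at most 25.3 TPM elsewhere. Pdk4, a kinase that restrains glucose oxidation, had 210 and 138 TPM, and 22.7 to 186 TPM in the others. Nrp1, a co-receptor for VEGF-A, had 15.1 and 20.5 TPM against 22.0 to 27.9 TPM in the other 5-week Col6a2-/- mice. The part of these genes in the Kdr and Flt1 values was not tested.

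Of the Tie receptors, Tie1 was called at 5 weeks and Tek was not. Tie1 had 5.21, 6.19 and 8.19 TPM as the lowest, median and highest in WT and 6.46, 8.51 and 9.81 TPM in Col6a2-/- mice. Every Col6a2-/- value was above the mean of the WT group of the same sex. The lowest was below the mean of all WT mice of 5 weeks, 6.63 TPM. The difference was 0.27 (SE 0.0895, limma adjusted p = 0.0255), and it was lost without WT male replicate 3, Col6a2-/- female replicate 1 or Col6a2-/- male replicate 3. Tek had 6.55, 7.24 and 10.5 TPM in WT and 6.27, 9.24 and 10.8 TPM in Col6a2-/- mice, with a difference of 0.19 (SE 0.0842, adjusted p = 0.0982). A direct test of Tek against Tie1 was not made.

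Pecam1 showed the largest difference of the 10 genes at 5 weeks. It had 13.2, 18.3 and 26.1 TPM as the lowest, median and highest in WT and 19.6, 25.2 and 29.5 TPM in Col6a2-/- mice. The groups overlap, with all 8 Col6a2-/- values above the mean of the WT group of the same sex. The difference was 0.34 (SE 0.0886, limma adjusted p = 0.00611), and no left-out library ended the call. In females alone the WT values were 13.2, 15.9, 17.0 and 18.5 TPM and the Col6a2-/- values 24.4, 26.0, 19.7 and 19.6 TPM, which do not overlap. That difference was 0.45 with adjusted p = 0.0195, the only call among the 10 genes in 5-week females, where 12.9% of all tested genes were called. Without the 2 libraries 4 of the 10 were called, against 31.9%, a count from which no test is read. The Pecam1 call in females was lost without WT female replicate 1 or Col6a2-/- female replicate 1 or 2. It was also lost under median-of-ratios scaling, without mitochondrial and Rn7s genes and in a fit of only the groups compared.

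Cdh5 had 14.4, 19.0 and 28.9 TPM in WT and 16.7, 25.8 and 33.0 TPM in Col6a2-/- mice at 5 weeks as the lowest, median and highest. Of the 8 Col6a2-/- values 7 were above the mean of the WT group of the same sex. The difference of 0.27 (SE 0.0981, limma adjusted p = 0.0422) was close to the threshold. Leaving out any 1 of 8 libraries ended the call, as did a replicate block. Testing with no filter, each of the 3 rescalings and a fit of only the groups compared ended it too. The adjusted p was 0.0664 to 0.321 in these last 5 fits. Emcn had medians of 5.50 and 6.26 TPM in WT and Col6a2-/- mice and Vwf 3.46 and 4.36 TPM, and neither passed the test, with adjusted p = 0.482 and 0.165. In 5-week males none of the 10 genes was called by limma, 0 had an unadjusted p under 0.05, and 5.03% of all tested genes were called.

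**Figure D3:**
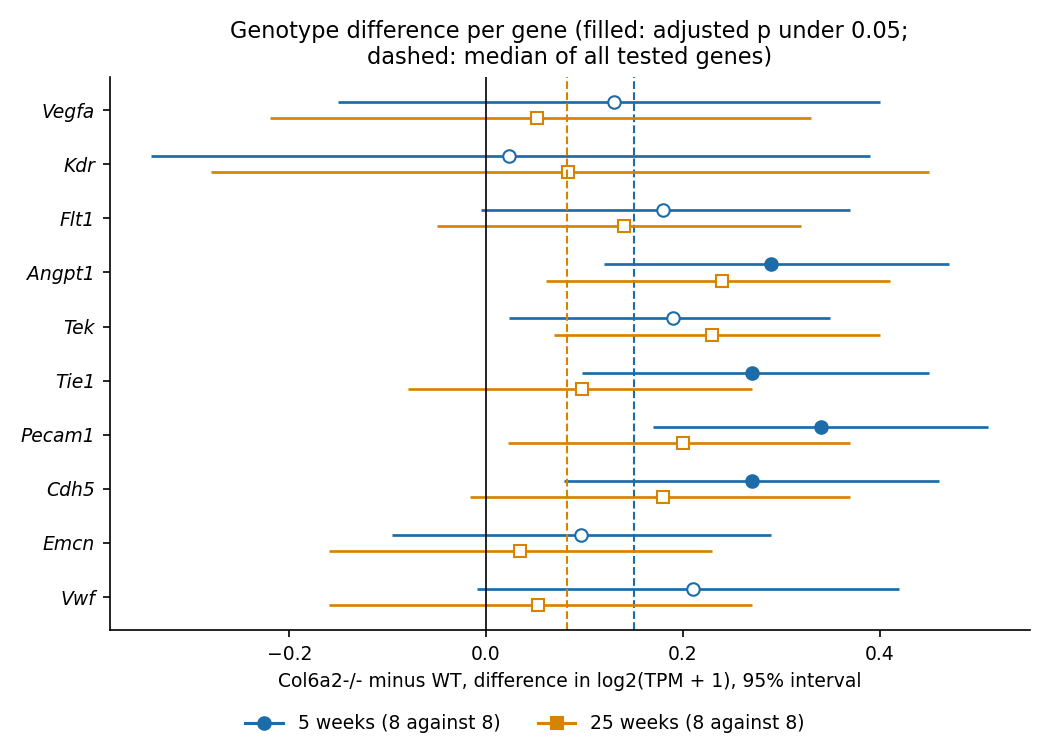
Difference between Col6a2-/- and WT for each gene on the log2(TPM + 1) scale, at 5 weeks (blue circles) and 25 weeks (orange squares), 8 against 8 mice, with 95% intervals; filled symbols passed the test, and dashed lines are the all-gene medians of 0.15 and 0.082. Pecam1, Cdh5, Tie1 and Angpt1 are filled at 5 weeks and no gene is filled at 25 weeks.

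Markers of some other cell types moved with genotype at 5 weeks as well, beside 23.2% of all tested genes called higher and 2.14% called lower. All 11 macrophage markers were higher in Col6a2-/- mice, with a median difference of 1.14, and their summed level was 73.9 to 124 TPM in WT and 112 to 386 TPM in Col6a2-/- mice; none of the 11 had a median under 0.1 TPM. Of 9 fibroblast markers 5 were higher, and their sum was 938 to 1660 TPM in WT and 805 to 2310 TPM in Col6a2-/- mice. Of 8 muscle fibre markers 4 were lower, with sums of 32500 to 44200 TPM in WT and 26200 to 41300 TPM in Col6a2-/- mice. Platelets and macrophages also express Pecam1, and platelets Vwf. Both tested platelet markers, Itga2b and Pf4, were higher, with sums over the 7 listed of 6.44 to 14.1 TPM in WT and 5.46 to 26.5 TPM in Col6a2-/- mice, while Treml1, Gp9, Gp1ba and Gp1bb had medians under 0.1 TPM. Limma called none of the 6 adipocyte, 5 tested Schwann cell and 5 tested red cell markers, and 0 had an unadjusted p under 0.05. The part of these cell types in the differences of the 10 genes was not tested.

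Beyond the 10 genes, 12 of 30 listed endothelial genes were higher in Col6a2-/- mice at 5 weeks and none was lower, beside 23.2% of all tested genes called higher, with a list median of 0.28 against 0.15 over all tested genes. Their summed level was 224 to 338 TPM in WT and 291 to 389 TPM in Col6a2-/- mice. Ly6c1, a surface antigen of microvascular endothelium and some monocytes, went from 27.0 ± 2.88 to 41.1 ± 5.56 TPM (SD, n = 8), with no overlap between 22.8 to 31.9 and 33.7 to 52.0 TPM. Its difference was 0.58 with limma adjusted p = 1.1e-05. Adgrl4, an adhesion receptor of endothelium, was 0.45 higher with adjusted p = 0.00128.

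The counts of the next lists are read against the same 23.2% of all tested genes. Of 8 other VEGF ligands and receptors, with a list median of 0.12 against 0.15 over all tested genes, the co-receptors Nrp2 (0.36) and Nrp1 (0.30) were higher at 5 weeks, with limma adjusted p = 0.0142 and 0.0422. Of the 5 tested of 7 other angiopoietin pathway genes, 4 were higher: Dok2, Adam17, Svep1 and Ptprb. Dok2, an adaptor of Tie2 that is also expressed in myeloid cells, had 1.10 ± 0.396 TPM in WT and 2.83 ± 1.0 TPM in Col6a2-/- mice (SD, n = 8), and Adam17, a sheddase, was 0.58 higher with adjusted p = 0.00042. Ptprb, the endothelial phosphatase that opposes Tie2, was 0.20 higher with adjusted p = 0.0439. Of 22 tested vessel growth genes outside these pathways 7 were higher. The smallest p were those of the chemokine receptor Cxcr4 (0.61) and of Robo4 (0.37), an order of p and not of size. Of 9 tested arterial markers Gja5, a gap junction gene, was higher, and of 5 tested venous markers Vcam1, an adhesion molecule also made by other cells, and the ephrin receptor Ephb4 were higher.

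At 25 weeks none of the 10 genes was called between genotypes by limma, with 3 at an unadjusted p under 0.05, against 4.7% of all tested genes called. The median difference of the 10 was 0.12 and that of all tested genes 0.082, and again all 10 were above 0, though the sign of Kdr, Emcn, Vwf and Vegfa turned under at least 1 rescaling. Tek had 5.41, 6.22 and 8.46 TPM as the lowest, median and highest in WT and 6.52, 7.87 and 8.61 TPM in Col6a2-/- mice, a difference of 0.23 with adjusted p = 0.109. In the fit without the 2 libraries the difference was again 0.23, with adjusted p = 0.0423 and 8.32% of all tested genes called. Those are 5-week libraries singled out by low Kdr, with which Tek varies, so no test is read from that fit. Angpt1 had 2.88, 5.28 and 6.55 TPM in WT and 4.21, 6.57 and 7.53 TPM in Col6a2-/- mice, a difference of 0.24 with adjusted p = 0.129. Vegfa at 29.9 and 30.5 TPM in the medians differed by 0.05, with a 95% interval from −0.22 to 0.33.

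Within the sexes at 25 weeks, Tek was called in males. It was 5.87, 5.62, 5.78 and 5.41 TPM in WT and 8.04, 8.09, 7.87 and 8.61 TPM in Col6a2-/- mice, so that the groups do not overlap. The difference of 0.46 (SE 0.119, limma adjusted p = 0.0328) was the only call among the 10 genes there, where 3.03% of all tested genes were called and all 10 differences were above 0. Leaving out any of 7 of the 8 libraries ended it. Testing with no filter, quantile normalisation, a replicate block and the removal of mitochondrial and Rn7s genes ended it too. Libraries and other markers differed in this comparison too: 10399 to 10877 genes were at 1 TPM or more in WT and 10940 to 11756 in Col6a2-/- males, 6 of 11 macrophage markers (median 0.88) and 4 of 9 fibroblast markers (median 0.85) were higher, and the all-gene median was 0.14. Their part in the Tek difference was not tested. In 25-week females Tek was 8.46, 7.21, 6.57 and 7.0 TPM in WT and 7.60, 7.87, 7.45 and 6.52 TPM in Col6a2-/- mice, and limma called none of the 10, with 0 at an unadjusted p under 0.05 and 0.0078% of all tested genes called. There 4 of the 10 differences were above 0, with a median of −0.062, against a median of 0.32 in males. The difference between the sexes was tested over both ages: limma called none of the 10 for genotype by sex, 0 at an unadjusted p under 0.05, with 0.0156% of all tested genes called, and for Tek it was 0.23 with a 95% interval from −0.0047 to 0.46. For genotype by age limma also called none, 0 at an unadjusted p under 0.05, against 0.492% of all tested genes, so the presence of calls at 5 weeks and their absence at 25 weeks is not shown to be a difference between the ages.

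The counts of the other lists at 25 weeks are read against the 4.47% of all tested genes called higher. On these lists 1 of 30 endothelial genes, Cd34, was higher in Col6a2-/- mice at 0.51 (limma adjusted p = 0.0208); Cd34 also marks fibro-adipogenic cells, and 6 of 9 fibroblast markers were higher as well. On the lymphatic list 4 of 7 tested IDs were higher: Lyve1, Mmrn1 and both IDs of Ccl21a, a chemokine gene with near-identical copies whose counts are uncertain. Lyve1, a hyaluronan receptor of lymphatic endothelium and of some macrophages, had 2.46 ± 0.754 TPM in WT and 4.10 ± 0.831 TPM in Col6a2-/- mice (SD, n = 8), a difference of 0.57 with adjusted p = 0.00125, against 0.01 at 5 weeks; the test of that contrast between the ages gave 0.56 with adjusted p = 0.074, which did not pass, and limma called none of the 7 lymphatic IDs for genotype by age, with 4 at an unadjusted p under 0.05, beside 0.492% of all tested genes called. Mmrn1 was 0.48 higher with adjusted p = 0.0276. Of 11 macrophage markers 8 were higher, with sums of 48.2 to 127 TPM in WT and 123 to 230 TPM in Col6a2-/- mice, and their part in the Lyve1 difference was not tested. Of the regulators of Vegfa, Egln3, an oxygen-dependent hydroxylase, was higher at 0.64 with adjusted p = 0.0299.

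Averaged over the sexes, Pecam1 and Cdh5 fell with age in both genotypes. Within WT females neither was called by limma (Pecam1 0.09, adjusted p = 0.844, and Cdh5 −0.10, adjusted p = 0.843). The sexes are given separately below. In WT mice Pecam1 and Cdh5 were lower at 25 than at 5 weeks, 2 of the 10 genes against 19.8% of all tested genes called and 15.3% called lower. In Col6a2-/- mice Pecam1, Cdh5 and Tie1 were lower, 3 of 10 against 34.2% of all tested genes called and 28.8% called lower. Without the 2 libraries 7 of the 10 were called, against 47.6%. The calls gained are Kdr and Flt1, by which these libraries were singled out, and Tek and Emcn, which vary with Kdr (r = 0.81 and 0.75). No test is read from this count. These age comparisons do not share samples between the genotypes, but each shares its samples with the genotype comparisons above.

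Of the 10 genes Cdh5 fell the most. It went from 14.4, 19.0 and 28.9 TPM as the lowest, median and highest at 5 weeks to 11.4, 14.0 and 18.3 TPM at 25 weeks in WT mice, and from 16.7, 25.8 and 33.0 to 11.9, 16.3 and 19.2 TPM in Col6a2-/- mice. The ranges overlap in both genotypes. The differences were −0.51 (SE 0.0981, limma adjusted p = 0.000397) and −0.61 (SE 0.0981, adjusted p = 2.3e-05), and in no alternative run for Cdh5 in these comparisons was either call lost. Pecam1 fell by 0.26 in WT (adjusted p = 0.0397) and by 0.40 in Col6a2-/- mice (adjusted p = 0.000938), and the WT call was lost in 11 of the 32 fits that left out 1 library, with no filter, under median-of-ratios scaling and without mitochondrial and Rn7s genes, where it was −0.13. Tie1 fell by 0.35 in Col6a2-/- mice (adjusted p = 0.00355), a call lost under median-of-ratios scaling (−0.22, adjusted p = 0.0633) and quantile normalisation (−0.19, adjusted p = 0.103), and its difference in WT was −0.17 with adjusted p = 0.19.

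Flt1 had medians of 6.25 and 7.47 TPM at 5 and 25 weeks in WT and 7.10 and 8.26 TPM in Col6a2-/- mice. Its differences were 0.21 (limma adjusted p = 0.13) and 0.16 (adjusted p = 0.19), and relative to the all-gene medians 0.28 and 0.30. After quantile normalisation the Flt1 difference in Col6a2-/- mice was called, at 0.33 with limma adjusted p = 0.0447. In WT mice it was called in a fit of only the groups compared. Vegfa had medians of 22.2 and 29.9 TPM in WT and 26.0 and 30.5 TPM in Col6a2-/- mice, with differences of 0.24 and 0.16 that did not pass the test. Kdr differed by −0.06 and −0.0048, with 95% intervals from −0.43 to 0.30 and from −0.37 to 0.36. Without the 2 libraries with low Kdr its difference in Col6a2-/- mice was −0.32, a value that leaving out its lowest 5-week values moves down by construction and that is given with no test.

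Other cell markers fell with age in Col6a2-/- mice too, beside 28.8% of all tested genes called lower and an all-gene median of −0.14. All 11 macrophage markers fell, with a median of −0.70, and their sum was 112 to 386 TPM at 5 weeks and 123 to 230 TPM at 25 weeks. All 5 tested Schwann cell markers (median −0.65) and all 3 tested satellite cell markers (median −0.47) fell, and of 9 fibroblast markers 4 fell and 1 rose. Macrophages express Pecam1, and the part of these cells in its fall was not tested.

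Age was also compared within each sex, a choice made after the data were seen. In WT males Cdh5 was 28.1, 28.9, 19.7 and 25.7 TPM at 5 weeks and 12.9, 14.2, 13.1 and 11.4 TPM at 25 weeks. In WT females it was 14.4, 15.1, 17.5 and 18.3 TPM at 5 weeks and 18.3, 14.2, 14.3 and 13.8 TPM at 25 weeks. The male values do not overlap between ages and the female values do. The fall was 0.93 in males (SE 0.139, limma adjusted p = 1.9e-05), whereas the difference in females was −0.10 (adjusted p = 0.843), and the test of the difference between the sexes gave −0.82 (SE 0.196, adjusted p = 0.026).

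Pecam1 in WT males was 26.1, 24.6, 18.2 and 23.5 TPM at 5 weeks and 14.0, 17.8, 13.3 and 14.1 TPM at 25 weeks, with no overlap. In WT females it was 13.2, 15.9, 17.0 and 18.5 TPM and then 19.3, 15.7, 18.0 and 15.9 TPM, which overlap. The differences were −0.61 (limma adjusted p = 0.000709) and 0.09 (adjusted p = 0.844), and they differed between the sexes by −0.70 (adjusted p = 0.0335). Tek and Tie1 also fell in WT males, by 0.49 (adjusted p = 0.00286) and 0.38 (adjusted p = 0.024). The call of Tie1 was lost in 5 fits without 1 library and under each of the 3 rescalings, with −0.17 (adjusted p = 0.344) under median-of-ratios scaling. Without mitochondrial and Rn7s genes those of Pecam1 (−0.36, adjusted p = 0.062) and Tek (−0.26, adjusted p = 0.159) were lost too. In all 4 of the 10 genes fell in WT males, against 28.6% of all tested genes called and 26.0% called lower, with an all-gene median of −0.21.

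Angpt1 rose with age in WT females. In WT females it was 3.47, 4.68, 3.84 and 4.48 TPM at 5 weeks and 5.62, 6.55, 5.93 and 6.26 TPM at 25 weeks, which do not overlap. The difference was 0.48 (SE 0.127, limma adjusted p = 0.0467), the 1 call among the 10 genes, against 1.84% of all tested genes called. In WT males it was 5.91, 5.11, 4.68 and 3.92 TPM and then 4.21, 4.22, 4.94 and 2.88 TPM, a difference of −0.23 that did not pass the test. The sexes differed by −0.70 (adjusted p = 0.0345). The female call was lost in 19 of 32 fits without 1 library with no filter, under the 3 rescalings and when coverage replaced TPM.

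The difference between the sexes in the age change was called for 3 of the 10 genes in WT, against 2.53% of all tested genes called, where the all-gene median was −0.27. None of the 3 was called under the 3 rescalings: median-of-ratios gave −0.51 for Cdh5 (limma adjusted p = 0.0992), −0.39 for Pecam1 and −0.44 for Angpt1. The fall of Cdh5 in WT males was called under each of them, between −0.68 and −0.71. In Col6a2-/- mice Cdh5 fell in both sexes, by 0.52 in females (adjusted p = 0.0185) and 0.70 in males (adjusted p = 0.000527), and Pecam1 fell in males by 0.49 (adjusted p = 0.00478). The female call of Cdh5 was lost without mitochondrial and Rn7s genes and in a fit of only the groups compared. That is 1 of 10 genes in females and 2 of 10 in males, against 7.5% and 25.9% of all tested genes called. The difference between the sexes was called by limma for none of the 10 genes in Col6a2-/- mice, with 2 at an unadjusted p under 0.05 (Vwf and Angpt1) and 0.0702% of all tested genes called.

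**Figure D4:**
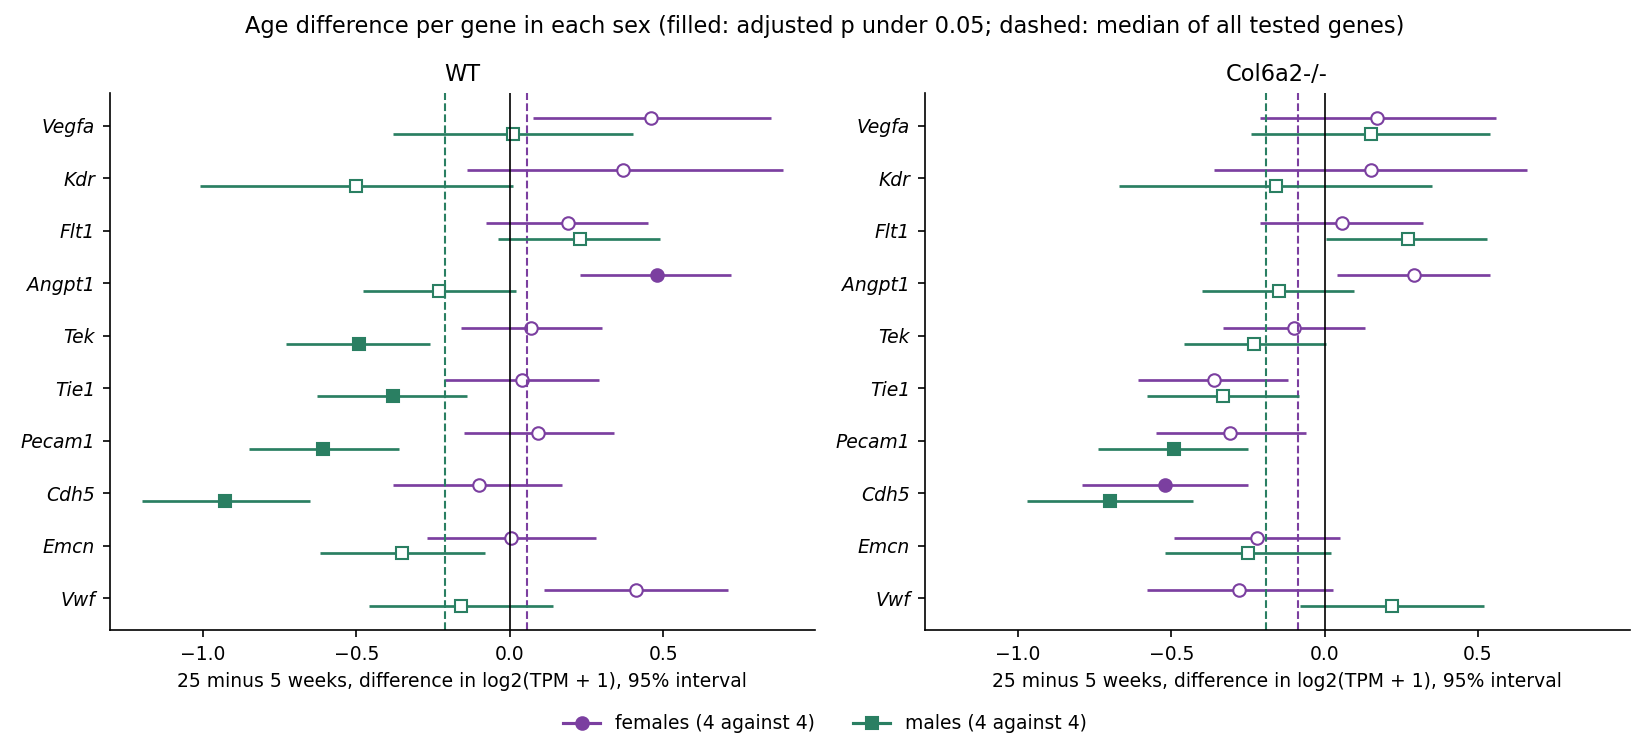
Difference between 25 and 5 weeks for each gene on the log2(TPM + 1) scale in WT (left) and Col6a2-/- mice (right), females as purple circles and males as green squares, 4 against 4 mice, with 95% intervals; filled symbols passed the test, and dashed lines are the all-gene medians. In WT males Tek, Tie1, Pecam1 and Cdh5 are filled on the left of 0, and in WT females Angpt1 is filled on the right.

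Other cell markers moved with age in WT males as well, beside 26.0% of all tested genes called lower and an all-gene median of −0.21. Of 11 macrophage markers 7 fell, and their sum was 80.9 to 124 TPM at 5 weeks and 48.2 to 77.4 TPM at 25 weeks; the sums in WT females were 73.9 to 77.3 and 73.5 to 127 TPM. In WT males 6 of 9 fibroblast markers fell, with a median of −0.74, as did 4 of 5 tested Schwann cell markers, with a median of −0.80, 5 of 12 mural markers and 4 of 8 fibre markers. The 25-week WT males had 10399 to 10877 genes at 1 TPM or more against 11438 to 11946 at 5 weeks, with a median of 44.7% of TPM in mitochondrial genes against 37.6%. The part of these values in the falls of Cdh5 and Pecam1 was not tested. Of 30 other endothelial genes 13 fell in WT males, with a list median of −0.42. In WT females limma called none, with 1 at an unadjusted p under 0.05 and a list median of 0.06, beside 1.84% of all tested genes called. The limma test of the difference between the sexes called 2 of the 30, Icam2 and Cd34, with 16 at an unadjusted p under 0.05. This compares with 2.53% of all tested genes called, and the list median was −0.49 against −0.27. The summed level of the 30 genes was 262 to 338 TPM at 5 weeks and 207 to 226 TPM at 25 weeks in males, and 224 to 267 and 212 to 265 TPM in females.

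Icam2, an adhesion molecule, fell by 0.84 and Cd34 by 1.20 in WT males, with limma adjusted p = 1.7e-05 and 2.6e-05. Of 8 other VEGF genes 5 fell in WT males, beside 26.0% of all tested genes, including Nrp2 by 0.88 and Pgf, the placental growth factor, by 0.61. Apln, the ligand of the apelin receptor and a gene of growing endothelial tips, fell the most of the vessel growth list, by 1.93 (adjusted p = 2.1e-08). Over both sexes Apln had 2.57 ± 1.82 TPM at 5 weeks and 0.388 ± 0.152 TPM at 25 weeks in WT mice, and 2.17 ± 0.999 and 0.533 ± 0.102 TPM in Col6a2-/- mice (SD, n = 8). In Col6a2-/- mice 18 of 30 endothelial genes fell with age over both sexes, beside 28.8% of all tested genes called lower. The smallest p were those of Robo4 (−0.54) and Esam, while Aplnr fell further than Robo4 (−1.27). In WT mice 5 fell and 1 rose (Rgcc, at 0.55), beside 15.3% called lower. These counts are not shown to differ: limma called none of the 30 for genotype by age, with 3 at an unadjusted p under 0.05, beside 0.492% of all tested genes called. Of the 8 other VEGF genes 4 fell with age in Col6a2-/- mice (Nrp2, Plxnd1, Pgf and Nrp1) and 2 rose (Vegfb and Vegfd). These compare with 28.8% of all tested genes called lower and 5.41% called higher. Vegfb, a VEGF family ligand of VEGFR1, rose by 0.39 (limma adjusted p = 0.00456). Of the 9 tested regulators of Vegfa, Hif1a and Vhl fell and Egln1 and Egln3 rose in Col6a2-/- mice, and Hif1a alone was called in WT mice. Hif1a, the oxygen-regulated factor that induces Vegfa, fell by 0.36 in WT and 0.47 in Col6a2-/- mice.

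Over genotype and age, Cdh5 was higher in males than in females by 0.25 (SE 0.0694, limma adjusted p = 0.0434). Of 16 males 12 were above the mean of the females of the same genotype and age. The order was the other way in 25-week WT mice, with 12.9 ± 1.13 TPM in males and 15.2 ± 2.14 TPM in females (SD, n = 4), while in the other 3 pairs of groups the male mean was higher. It was the only one of the 10 genes called for sex, where 3.05% of all tested genes were called. The call was lost in 21 of the 32 fits without 1 library and with no filter. Tie1, at 0.20, had adjusted p = 0.0845.

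Within groups, 6 of the genes varied together from mouse to mouse. After each group's mean was subtracted, the 15 pairs among Pecam1, Cdh5, Kdr, Tek, Emcn and Tie1 had Pearson r from 0.34 to 0.85 with a median of 0.58 over 32 libraries, a description of points that share a library and its depth. Flt1 stood outside this set, with r from −0.21 to 0.27 against its members. Without the 2 libraries with low Kdr the 15 pairs had r from 0.30 to 0.84, and Flt1 had r from 0.26 to 0.48, so its separation rests on them. They were singled out by low Kdr beside comparatively high Flt1, so leaving them out raises the r of Flt1 with Kdr by construction. Vwf had r from 0.01 to 0.27 with the 6 genes and Vegfa from 0.30 to 0.50. Vegfa and Flt1 had r = 0.50, and 0.70 without the 2 libraries.

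**Figure D5:**
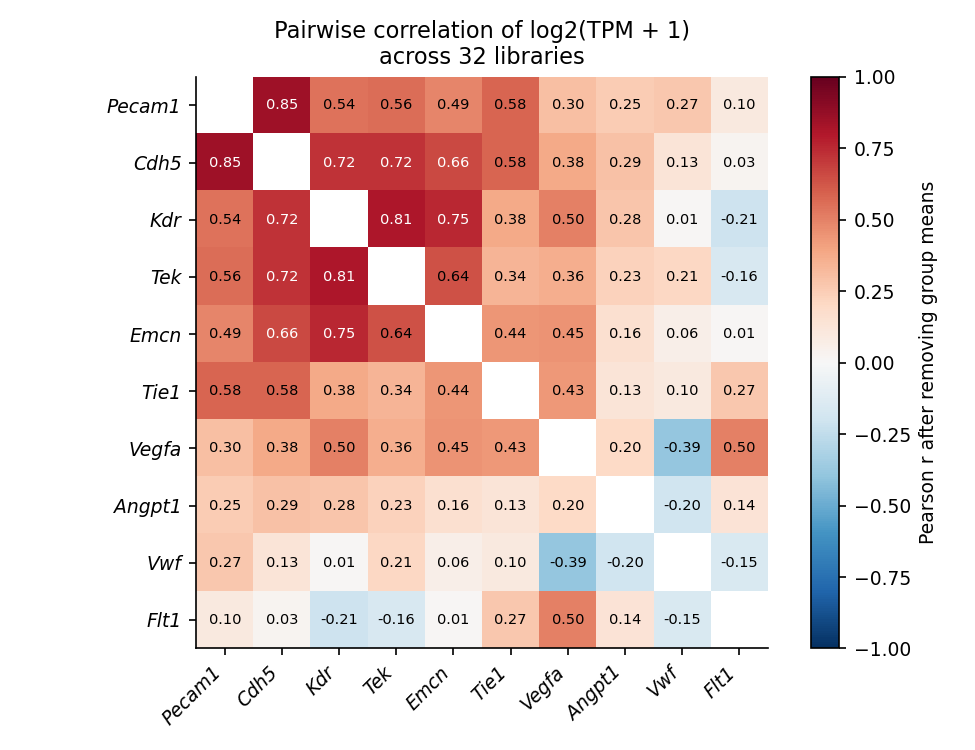
Pearson r between each pair of the 10 genes on log2(TPM + 1) after each group's mean was subtracted, over 32 libraries (red: positive; blue: negative). The block of Pecam1, Cdh5, Kdr, Tek, Emcn and Tie1 has r from 0.34 to 0.85, and the row of Flt1 runs from −0.21 to 0.27 against it.

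The genes most like the mean of the 8 endothelial members within groups were Nrp1 (r = 0.88), Ppat (0.83), Tmem250-ps (0.83), Wdr1 (0.82) and Lpcat3 (0.82) over 32 libraries. The median r of all tested genes with that mean was 0.31, and their central 95% ran from −0.17 to 0.62. Those most like Vegfa were Atp5b (0.84) and Sirt3 (0.84), which encode a subunit of ATP synthase and a mitochondrial deacetylase, Perm1 (0.83), a muscle gene of mitochondrial biogenesis, Podxl (0.81) and Padi2 (0.79), with a median over all tested genes of −0.04.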

How the data were processed

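Quadriceps RNA from 32 mice was sequenced, 1 library a mouse, with a TruSeq RNA kit and paired-end reads, per the labels' protocols. The submitters' processing notes name FastQC, MultiQC, Trimmomatic, HISAT2, SAMtools and StringTie, and the builds GRCm38 and mm10, without versions; which annotation was used, and whether reads were counted by strand, is not given in the sources used here. The tables deposited by the authors hold TPM, FPKM and coverage (mean read depth) per gene, per the file headers. TPM was summed per gene ID, since an ID can have several rows. FPKM and coverage, as deposited by the authors, served to compare depth between libraries, and coverage also as an alternative measure. Since no table of read counts entered the fits, limma on a log scale took the place of count tests, and precision rests on the 4 mice of each group.

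Genes that reached 1 TPM in 4 or more libraries were tested on log2(TPM + 1), a scale that understates changes of genes with low TPM. limma 3.58.1 in R 4.3.3 was fitted with 1 mean per group to all 32 libraries (eBayes with a trend), two-sided, with Benjamini-Hochberg adjustment over 12817 genes and 0.05 as the threshold. Mice of a group are separate animals per the labels' protocols. Replicate numbers were not used as pairs. The script was tested on simulated data. Alternatives were a pseudocount of 0.1, no filter or a filter at 5 TPM, median-of-ratios scaling, removal of mitochondrial and Rn7s genes, quantile normalisation, a fit of only the groups compared, a replicate block and leaving out each library; coverage in place of TPM, the fit without 2 libraries and age within each sex were added after seeing the data. Tables were handled with the R package data.table (version 1.17.8), Python 3.11.15, pandas 2.3.3 and numpy 2.4.6, and plots drawn with matplotlib 3.10.9. Gene positions are those in the tables deposited by the authors, on GRCm38, and promoters are from RefSeq on GRCm38.p6. The 10 genes and all gene lists were chosen with earlier results of these data known. All 10 genes are described; of each list at most the 2 called genes with the smallest p in each direction are named, plus all members of counts of 5 or fewer where these are spelled out and genes a result turns on, which were chosen after their values were seen.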

Additional observations from a re-analysis of the deposited data

Results flagged for a closer look

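Of 80 groups of 4 libraries, 5 held a library that Dixon's test set apart; about 1 in 20 is flagged by chance. Cdh5 was high at 18.3 TPM in replicate 1 of the 25-week WT females, where the others had 13.8 to 14.3 TPM, and at 19.2 TPM in replicate 1 of the 25-week Col6a2-/- males, where the others had 16.3 to 16.6 TPM. Tie1 was low at 5.92 TPM in replicate 3 of the 5-week WT males (others 7.94 to 8.19 TPM) and at 5.46 TPM in replicate 2 of the 25-week Col6a2-/- males (others 7.41 to 7.56 TPM). Vwf was low at 2.82 TPM in replicate 2 of the 5-week WT females, where the others had 3.38 to 3.48 TPM.

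In 40 tests of a difference between groups in the same contrast, 3 passed in limma: the change with age in WT mice differed between males and females for Cdh5 (−0.82, adjusted p = 0.026), Pecam1 (−0.70, adjusted p = 0.0335) and Angpt1 (−0.70, adjusted p = 0.0345), male minus female. Each was lost when 1 of several libraries was left out, 4 for Cdh5, 8 for Pecam1 and 12 for Angpt1. The 4 libraries common to all 3 genes were replicates 1 and 2 of the 5-week WT females, replicate 1 of the 5-week WT males and replicate 1 of the 25-week WT females. The adjusted p over all alternatives ran from 0.00607 to 0.241 for Cdh5, from 0.0125 to 0.314 for Pecam1 and from 0.0154 to 0.382 for Angpt1.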

How the results depend on the processing

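Of the changes of single genes recomputed under the alternatives, 2036 kept their direction and their side of the threshold, 153 lost a call, 25 gained one and 49 changed sign; no gene that changed sign was called in either fit. The cause of these changes was not tested. TPM gives no counts, and the error of low genes such as Angpt1 and Vwf is known here from the spread between mice alone; Vwf had no value under the filter at 5 TPM.

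At 5 weeks the number of the 10 genes called between genotypes, 4 in the report, was 0 under median-of-ratios scaling, 2 without mitochondrial and Rn7s genes and 1 after quantile normalisation. In 5-week females the number, 1 in the report, was 0 under median-of-ratios scaling, without mitochondrial and Rn7s genes and in a fit of only the groups compared. At 25 weeks it was 1 in a fit of only the groups compared (Tek), and in 25-week males 0 with no filter, without mitochondrial and Rn7s genes and after quantile normalisation. For age in WT it was 1 with no filter, under median-of-ratios scaling and without mitochondrial and Rn7s genes, and 4 in a fit of only the groups compared. For sex it was 0 with no filter, with 4 at an unadjusted p under 0.05 in limma, and 2 without mitochondrial and Rn7s genes. Within WT females the age count was 0 with no filter, under the 3 rescalings and with coverage in place of TPM. In WT males it was 1 without mitochondrial and Rn7s genes. For age by sex in WT it was 0 with no filter and under the 3 rescalings and 5 in a fit of only the groups compared. In Col6a2-/- females the age count was 0 without mitochondrial and Rn7s genes and in a fit of only the groups compared and 2 after quantile normalisation, and in Col6a2-/- males 4 after quantile normalisation. In a fit without replicate 4 of both 5-week Col6a2-/- groups, which were singled out by their Kdr and Flt1 values, it was 6 for genotype at 5 weeks, 1 at 25 weeks, 4 in 5-week females, 7 for age in Col6a2-/-, 6 in WT males, 5 for age by sex in WT, and 3 and 5 for age in Col6a2-/- females and males. No test is read from the counts of that fit.

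Whether replicate numbers pair the samples was not settled. Same-numbered WT and Col6a2-/- mice had correlated deviations (r over 0.1) in 6 of 8 pairs at 5 weeks, from −0.061 to 0.234. At 25 weeks 2 of 8 pairs did, from −0.023 to 0.118. The r of differently numbered mice was not computed for comparison, so these values cannot decide it. With a replicate block 3 genes were called in 5-week females and 0 in 25-week males, where 6 had an unadjusted p under 0.05 in limma, and the block changed no other count by over 1.5 times. The 4 calls for genotype at 5 weeks became 3, without Cdh5.

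Signs turned under rescaling for genes that were not called. At 5 weeks the genotype difference of Kdr was −0.12 and that of Emcn −0.04 under median-of-ratios scaling, −0.13 and −0.085 after quantile normalisation, and that of Vegfa −0.024 under median-of-ratios scaling. At 25 weeks it was −0.0011 for Kdr, −0.02 for Vwf, −0.042 for Emcn and −0.038 for Vegfa under median-of-ratios scaling, −0.0016 for Vwf, −0.025 for Emcn and −0.019 for Vegfa without mitochondrial and Rn7s genes, and −0.059 for Vwf and −0.061 for Emcn after quantile normalisation. The age difference of Kdr in WT was 0.0083 under median-of-ratios scaling, 0.061 without mitochondrial and Rn7s genes and 0.0014 after quantile normalisation. In Col6a2-/- mice it was 0.0085 with a pseudocount of 0.1 and 0.13, 0.063 and 0.14 under the same 3 rescalings, and that of Vwf was 0.086, 0.031 and 0.14.

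Leaving out 1 library at a time gave 2 to 5 called genes for genotype at 5 weeks, 0 to 4 in 5-week females, 0 to 1 in 25-week males, 1 to 3 for age in WT, 3 to 6 for age in Col6a2-/-, 0 to 2 for sex, 0 to 1 and 3 to 5 for age in WT females and males, 0 to 4 for age by sex in WT, 0 to 2 and 2 to 3 for age in Col6a2-/- females and males, and 0 at 25 weeks, in 5-week males, in 25-week females, for genotype by age, for genotype by sex and for age by sex in Col6a2-/-. Over the same fits and the one without 2 libraries, the genotype difference ran from −0.068 to 0.34 for Kdr at 5 weeks and, at 25 weeks, from −0.011 to 0.12 for Vwf, from −1.5e-06 to 0.098 for Emcn and from −0.028 to 0.14 for Vegfa. The age difference in Col6a2-/- mice ran from −0.32 to 0.087 for Kdr and from −0.092 to 0.011 for Vwf.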
